A study of Mus musculus with 8 samples.

Results

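The comparison described here set transplanted against cultured reprogramming fibroblasts after 1 week, the first of the 2 time points of the series, in 4 of its 8 RNA-seq libraries. MICFs, the cardiac fibroblasts that had been isolated from the infarcted area of C57BL/6 male mouse hearts on Day 6 after myocardial infarction (MI), were infected with lentiviruses for MGT (*Mef2c*, *Gata4* and *Tbx5*), *Myocd*, *Sall4* and eGFP, all under a doxycycline-inducible promoter (genotype MGTMyoS overexpression in both groups). In the *in vivo* group, 2 libraries hold eGFP+ cells sorted on Day 7 from the hearts of recipient mice. These mice had received the cells in the left ventricle at the time of coronary ligation, doxycycline in the drinking water and daily immunosuppressants (tacrolimus, methylprednisolone and mycophenolate mofetil). A mouse age of 8 weeks is given for both groups, which is the age at which the study performed MI surgery. In the *in vitro* group, 2 libraries hold eGFP+ cells of the same kind sorted on Day 7 from culture. The study's reprogramming medium contains serum, doxycycline, the TGF-β receptor inhibitor SB431542 and the JAK inhibitor baricitinib, although it is not stated separately which medium these cultures had. Genes were compared when their FPKM (fragments scaled to gene length and to library size) was at least 0.5 in at least 2 of the 4 libraries, which kept 14572 of the 54532 genes in the deposited table. The study's own account of these libraries names sarcomere, collagen and interferon genes, so the groups of genes described below are others: 60 lists of pathways, cell type markers and complexes.

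Cardiac fibroblasts build and remodel the collagen-rich matrix between myocytes. After MI they proliferate, become contractile myofibroblasts and then matrifibrocytes, cells of the mature scar that express genes typical of tendon and cartilage. Cultured fibroblasts on plastic meet a stiff surface and serum growth factors, whereas cells in an infarct meet inflammatory cells, mechanical load and blood-borne lipids and hormones.

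The 4 libraries held between 12801808 and 14546904 fragments on genes. Replicates of a group differed from each other by far less than the groups did, with a chi-square per gene of 5.34 between the *in vivo* libraries, 4.63 between the *in vitro* libraries and 152 to 172 across groups. The labels do not say whether the replicates are separate animals or wells, so p-values measure the spread between these samples, which may be technical. *In vivo* the 10 genes with most fragments held 14.4% to 15% of the total, against 7.14% to 7.30% *in vitro*. Fibroblast RNA was present throughout, with *Pdgfra* at 20.1 and 21.6 *in vivo* and 20.2 and 19.8 *in vitro* (FPKM of replicates 1 and 2 in each group, as in all such pairs below). The leukocyte gene *Ptprc*, which encodes CD45 and lies outside the rule for named genes, was also measured in every library, at 7.26 and 6.07 *in vivo* and 5.18 and 6.84 *in vitro*. All 4 libraries had transcripts of the delivered factors, which are reported because they were delivered and in which vector and endogenous copies are not separated: *Gata4* stood at 37.3 and 35.9 *in vivo* and 52.6 and 55.4 *in vitro*, *Mef2c* at 5.34 and 5.38 *in vivo* and 5.2 and 5.88 *in vitro*, *Tbx5* at 6.92 and 6.35 *in vivo* and 9.38 and 10.5 *in vitro*, *Myocd* at 2.11 and 2.10 *in vivo* and 3.83 and 4.52 *in vitro* and *Sall4* at 6.39 and 6.20 *in vivo* and 12.2 and 15.4 *in vitro*. Of these 5, *Sall4* was lower *in vivo* by the criteria used below (-1.11 ± 0.21, adjusted p = 0.00527, but 0.015 to 0.04 when any 1 of the 4 libraries was left out) and the others were not called.

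A gene counted as changed when limma gave a Benjamini-Hochberg adjusted p under 0.01 over all 14572 genes and a log2 fold change above 1 in size, always *in vivo* minus *in vitro* on the log2(FPKM + 0.1) scale and with its standard error. By this rule 1227 genes were higher *in vivo*, which is 8.42% of those tested, and 792 were lower, which is 5.44%. The median log2 fold change over all genes was -0.01. The deposited FPKM already contain a scaling between libraries. When that scaling was undone, the median moved to -0.35 and 897 genes were higher and 1572 lower, so that higher genes made up 36.3% of the calls in place of 60.8%. Changes below are therefore relative to the deposited scaling. Without overlap between the 2 libraries of each group stood 74.8% of all genes, and a lack of overlap alone is thus no sign of a change. For a list with no call in one direction, the number of members at an unadjusted p under 0.05 in that direction by limma is given in parentheses, and limma voom on recovered fragments called none there either, except 1 neutrophil marker lower and 1 mast cell gene higher.

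**Figure D1:**
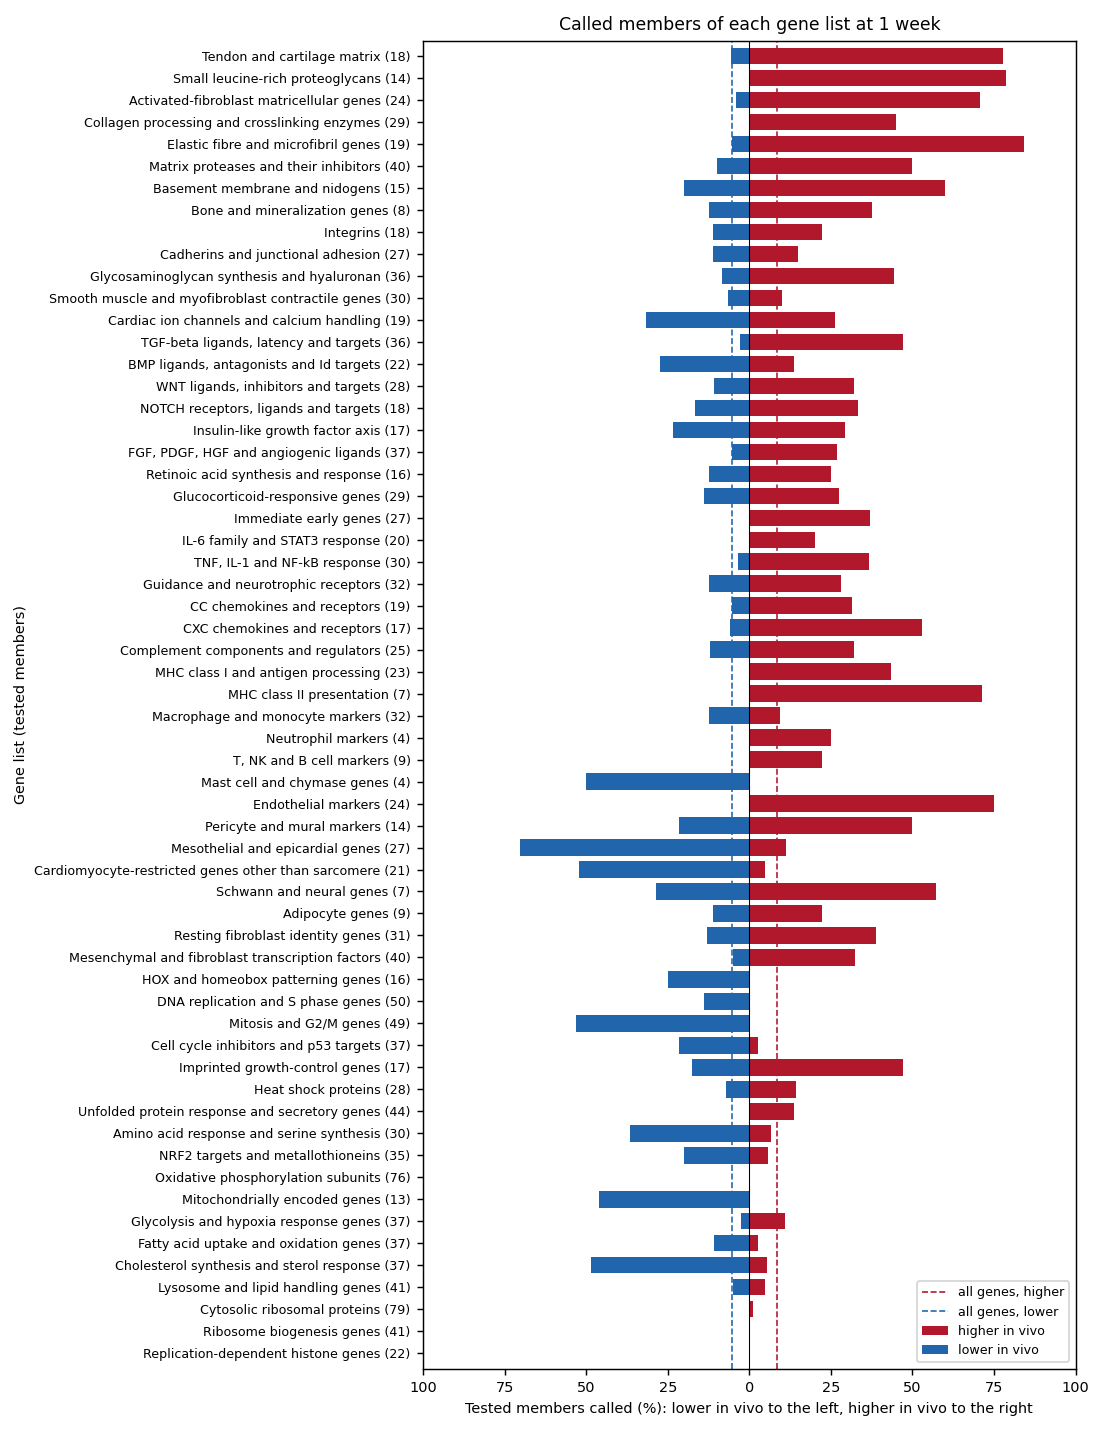
Share of the tested members of each gene list (number of tested members in parentheses) that were higher (red, to the right) or lower (blue, to the left) *in vivo* at 1 week, with dashed lines at the shares over all genes, 8.42% and 5.44%. Matrix, endothelial and MHC class II lists reach far to the right, and mesothelial, mitosis, sterol and mitochondrially encoded lists far to the left.

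Of the 18 tested matrix genes of tendon and cartilage, 14 were higher *in vivo* and 1 was lower, with a median log2 fold change of 2.87. *Comp*, the cartilage oligomeric matrix protein that guides collagen fibril assembly, had 146 and 195 *in vivo* and 0.197 and 0.181 *in vitro*. The *in vivo* pair was thus high and the *in vitro* pair close to zero, a log2 fold change of 9.19 ± 0.14, adjusted p = 1.04e-07. *Thbs4*, a tendon thrombospondin, rose from at most 3 fragments in each *in vitro* library to 108 and 137 *in vivo*, at least 2038-fold higher against a floor of 3 fragments per library. *Cilp*, a cartilage intermediate layer protein found in cardiac scars, stood at 198 and 216 *in vivo* and 1.60 and 1.76 *in vitro* and *Prg4*, which encodes the joint lubricant lubricin, at 18.6 and 21.2 *in vivo* and 0.137 and 0.0469 *in vitro*. The groups were far apart for both, with log2 fold changes of 6.86 ± 0.11 and 6.74 ± 0.26. The tendon transcription factor *Scx* (11.5 and 15.8 *in vivo* and 0.291 and 0.334 *in vitro*) rose by 5.04 ± 0.17, and the tendon membrane protein *Tnmd* (2.46 and 3.12 *in vivo* and 0.240 and 0 *in vitro*) by 3.96 ± 0.55. *Angptl7*, a secreted angiopoietin-like protein, was the 1 member that fell, from 30.5 and 27.4 *in vitro* to 12.9 and 15.1 *in vivo* (-1.05 ± 0.11, adjusted p = 0.000317). Without *in vivo* replicate 1 or 2 the call of *Tnmd* was lost (adjusted p = 0.011 to 0.015), and without *in vivo* replicate 1 or *in vitro* replicate 1 that of *Angptl7* (log2 fold change -0.94 to -0.97). Outside the list, *C1qtnf3*, also known as cartducin from its expression in cartilage, had 48.2 and 53.5 *in vivo* and 0.0254 and 0 *in vitro*, at least 657-fold higher *in vivo*. On the bone list the picture was mixed. *Runx2*, the master regulator of osteoblasts, had 3.55 and 3.67 *in vivo* and 1.58 and 1.60 *in vitro* and rose by 1.13 ± 0.13. *Enpp1*, which makes the mineralization inhibitor pyrophosphate, rose by 2.07 ± 0.09, whereas *Smpd3*, a sphingomyelinase needed for bone mineralization, fell (1.09 and 0.836 *in vivo* and 14.2 and 13.6 *in vitro*, log2 fold change -3.73 ± 0.14). The alkaline phosphatase gene *Alpl*, at 1.02 and 0.837 *in vivo* and 0.660 and 1.05 *in vitro*, overlapped between the groups, and 13 of the 21 bone genes, among them *Sp7*, *Bglap* and *Ibsp*, were too low to test.

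Small proteoglycans bind collagen fibrils. All 14 tested members had log2 fold changes above zero and 11 passed the test, none downward (0). With the scaling undone 8 rose, and with quantile normalization 9. *Dcn* (decorin) had 506 and 490.2 *in vivo* and 239.7 and 208 *in vitro* and *Bgn* (biglycan) 1555 and 1610.3 *in vivo* and 481 and 475 *in vitro*. Both were well expressed in culture and rose moderately, by 1.16 ± 0.08 and 1.73 ± 0.08. *Dcn* was not called with the scaling undone or with quantile normalization. *Aspn* (asporin), a competitor of decorin for collagen, was far more unequal at 428 and 425 *in vivo* and 7.75 and 6.34 *in vitro*, a log2 fold change of 5.91 ± 0.10, adjusted p = 1.53e-07, and *Lum* (lumican) lay between them at 680.2 and 674 *in vivo* and 121 and 108 *in vitro*. Of the 24 matricellular genes of activated fibroblasts, 17 rose and 1 fell, with a median of 2.32. *Postn* (periostin), which marks activated cardiac fibroblasts, had 1985 and 1897 *in vivo* and 191 and 162 *in vitro* and rose by 3.46 ± 0.10. *Cthrc1*, a marker of the most matrix-producing fibroblasts of healing infarcts, had 559.8 and 544 *in vivo* and 32.5 and 24.8 *in vitro* and rose by 4.28 ± 0.12. The tenascins *Tnc* (98.5 and 108 *in vivo* and 11.8 and 11.4 *in vitro*) and *Tnn* (3.17 and 4.28 *in vivo* and 0.0447 and 0.0230 *in vitro*) rose by 3.14 ± 0.09 and 4.83 ± 0.32, and the thrombospondin *Thbs3* by 4.94 ± 0.14. *Fbln7*, a cell-adhesive fibulin, went the other way at 2.33 and 2.52 *in vivo* and 9.02 and 9.13 *in vitro* (-1.86 ± 0.12).

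Elastic fibre genes held the highest share of risen members among the lists of the overview, 16 of 19, with 1 lower and a median of 1.98. *Eln*, which encodes elastin, had 582 and 685 *in vivo* and 81.1 and 78.0 *in vitro* and rose by 2.99 ± 0.09. The microfibril gene *Fbn1* (fibrillin-1) had 303 and 342 *in vivo* and 82.3 and 83.2 *in vitro* and rose by 1.96 ± 0.12. *Mfap4*, a protein that binds both, was the most changed, from 30.0 and 31.4 *in vitro* to 1029.5 and 1113 *in vivo* (5.12 ± 0.08, adjusted p = 1.04e-07). The exception was *Efemp1* (fibulin-3), which is also counted among mesothelial genes and fell from 85.0 and 76.5 to 6.25 and 7.5 (-3.54 ± 0.13). Among enzymes that process and crosslink collagen, 13 of 29 rose and none fell (3). The lysyl oxidase *Lox* had 486 and 553 *in vivo* and 80.1 and 74.7 *in vitro* and rose by 2.74 ± 0.10, while its relative *Loxl3* rose by 3.30 ± 0.07. The prolyl hydroxylase subunits diverged: *P4ha3* had 43.6 and 47.2 *in vivo* and 5.10 and 4.66 *in vitro* and rose by 3.19 ± 0.10, *P4ha2* rose by 1.36 ± 0.15, and *P4ha1*, a target of the hypoxia response, was lower in both *in vivo* libraries (70.9 and 74.4 *in vivo* and 103 and 96.2 *in vitro*) without reaching the fold criterion (-0.46 ± 0.06).

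**Figure D2:**
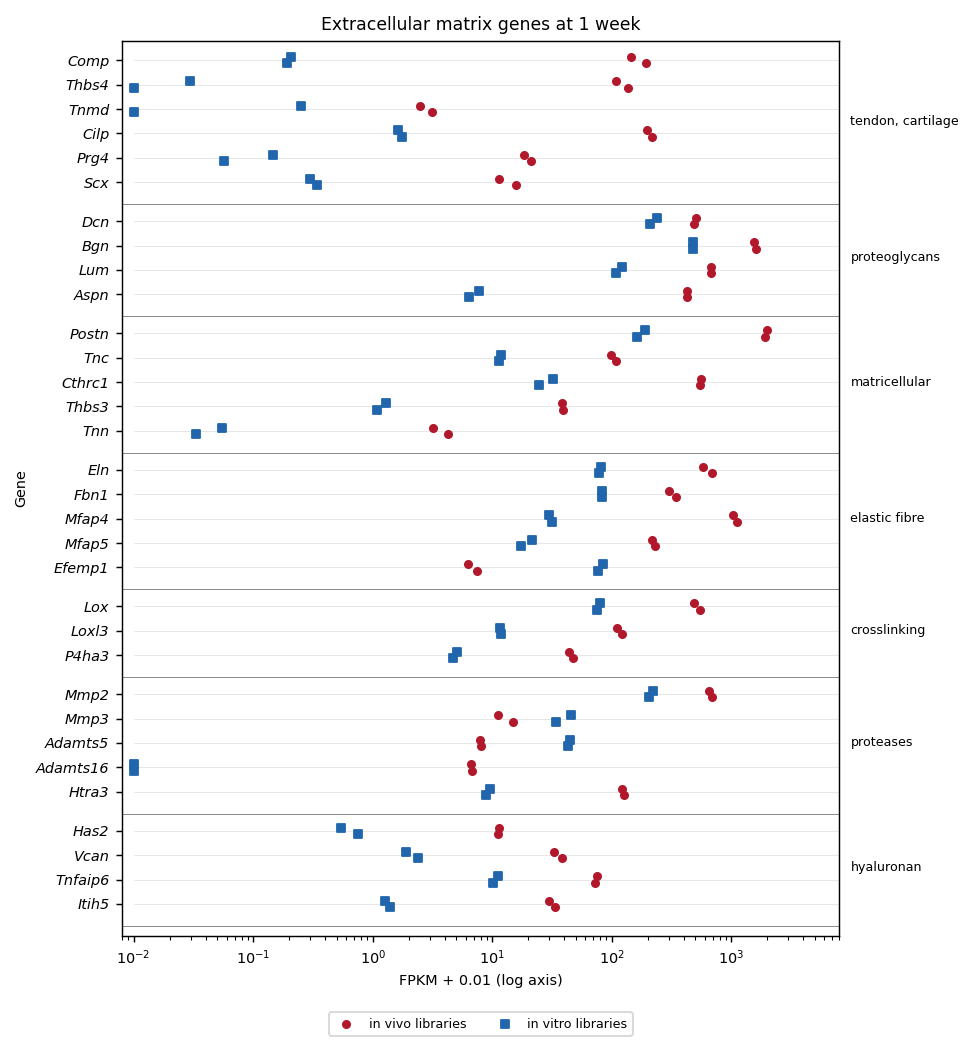
FPKM + 0.01 on a log axis for 32 matrix genes in the *in vivo* (red circles) and *in vitro* (blue squares) libraries of 1 week, 2 points per group, grouped by role. *In vivo* points lie to the right for all genes shown except *Efemp1*, *Mmp3* and *Adamts5*.

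Matrix-degrading enzymes changed in both directions, 20 of 40 higher and 4 lower (7 lower with the scaling undone). The gelatinase gene *Mmp2* (649 and 687 *in vivo* and 219.7 and 205 *in vitro*) and its membrane-bound activator *Mmp14* (237 and 228 *in vivo* and 94.8 and 98.1 *in vitro*) rose by 1.65 ± 0.08 and 1.27 ± 0.09. *Adamts16*, a secreted metalloprotease, was at 0 fragments in both *in vitro* libraries and at 6.58 and 6.78 *in vivo*, at least 231-fold higher. By contrast the stromelysin *Mmp3* (11.1 and 14.9 *in vivo* and 45.7 and 33.9 *in vitro*), the macrophage elastase *Mmp12* (4.93 and 5.50 *in vivo* and 13.7 and 18.3 *in vitro*), the collagenase *Mmp13* (0.927 and 1.18 *in vivo* and 3.38 and 5.01 *in vitro*) and the aggrecan-cleaving *Adamts5* (7.85 and 8.04 *in vivo* and 44.7 and 43.1 *in vitro*) were the 4 that fell, by 1.61 ± 0.18, 1.58 ± 0.19, 1.88 ± 0.36 and 2.45 ± 0.07 on the log2 scale. The call of *Mmp13* was lost when any 1 of the 4 libraries was left out (adjusted p = 0.016 to 0.042). The metalloprotease inhibitor *Timp1* rose by 1.42 ± 0.11. *Htra3*, a serine protease that acts on TGF-β family signalling, rose by 3.73 ± 0.09. *Has2*, the main hyaluronan synthase of mesenchymal cells, had 11.4 and 11.1 *in vivo* and 0.537 and 0.743 *in vitro* and rose by 3.96 ± 0.21. *Vcan* (versican), a large proteoglycan that binds hyaluronan, had 32.9 and 38.3 *in vivo* and 1.9 and 2.37 *in vitro* and rose by 4.01 ± 0.14. *Tnfaip6* and *Itih5*, whose products attach heavy chains to hyaluronan or carry them, rose by 2.80 ± 0.11 and 4.48 ± 0.18. In the whole glycosaminoglycan list 16 of 36 rose and 3 fell, the latter including the glypican *Gpc3* (-1.07 ± 0.12).

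The basement membrane list split by chain. *Lama2*, the laminin chain of muscle, rose by 1.58 ± 0.11, whereas *Lama5*, a chain of epithelial membranes, fell (6.88 and 7.97 *in vivo* and 18.8 and 19.9 *in vitro*, log2 fold change -1.37 ± 0.12). The linker nidogens also went opposite ways, with *Nid1* at 231 and 247 *in vivo* and 73.8 and 74.1 *in vitro* (1.69 ± 0.08) and *Nid2* at 23.4 and 22.8 *in vivo* and 47.3 and 53.1 *in vitro* (-1.11 ± 0.08). Among integrins, which tie cells to matrix, 4 of 18 rose and 2 fell. *Itga5*, the fibronectin receptor chain, rose from 20.9 and 21.5 to 64.3 and 65.8 (1.61 ± 0.05) and the collagen receptor chain *Itga11* rose by 1.39 ± 0.12. *Itga8* and *Itga3*, which bind nephronectin and laminins, fell by 2.38 ± 0.11 and 1.86 ± 0.10, and the nephronectin gene *Npnt* fell by 1.88 ± 0.10. *Itgb1*, the shared β1 chain, did not pass the test at 388 and 378 *in vivo* and 342 and 324 *in vitro*. Contractile genes of smooth muscle and myofibroblasts gave 3 rises (10%) and 2 falls (6.67%) among 30, beside 8.42% and 5.44% of all genes, with a median of -0.16. With the scaling undone 1 rose and 6 fell, and the median was -0.50. *Acta2*, which encodes the smooth muscle actin that defines myofibroblasts, had 599.9 and 572 *in vivo* and 819 and 756 *in vitro* (-0.43 ± 0.08, short of the fold criterion). *Myh11*, smooth muscle myosin, fell from 28.5 and 32.0 to 13.2 and 12.6 (-1.22 ± 0.07), and the actin scaffold *Palld* rose by 1.92 ± 0.07.

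TGF-β genes were largely higher *in vivo*, 17 of 36 against 1 lower, with a median of 0.97. The ligand *Tgfb1* itself was not called, at 29.5 and 30.9 *in vivo* and 30.8 and 36.7 *in vitro* (-0.16 ± 0.11, adjusted p = 0.271). RNA of the latent TGF-β binding proteins *Ltbp1* (15.2 and 14.7 *in vivo* and 1.79 and 1.67 *in vitro*) and *Ltbp2* (206 and 256 *in vivo* and 14.5 and 15.9 *in vitro*) rose by 3.04 ± 0.10 and 3.90 ± 0.11. Target genes rose as well. *Ctgf*, a connective tissue growth factor induced by TGF-β and by YAP, had 988 and 1027 *in vivo* and 109 and 115 *in vitro* and rose by 3.16 ± 0.07. *Lrrc15*, a TGF-β-induced membrane protein of myofibroblasts, had 1.67 and 2.79 *in vivo* and 0 and 0.0126 *in vitro* and was at least 59.9-fold higher. The inhibitor *Smad7* was higher in both *in vivo* libraries (72.9 and 62.0 *in vivo* and 38.5 and 41.1 *in vitro*) but below the fold criterion, and *Smad6*, the inhibitor of BMP signals, was the member that fell (13.9 and 13.7 *in vivo* and 28.8 and 28.1 *in vitro*, -1.04 ± 0.11). The study's culture medium holds a TGF-β receptor inhibitor, and its part in these differences cannot be told apart from that of the heart. For BMP genes the balance was 3 higher and 6 lower of 22. *Bmp4* fell from 19.1 and 18.4 to 8.28 and 7.34 (-1.26 ± 0.08), and *Bmp3* and the target *Id4* fell by 2.83 ± 0.21 and 2.93 ± 0.13. The antagonists *Chrd* and *Bmper* rose by 2.43 ± 0.17 and 2.72 ± 0.11. *Id1*, the usual first target of BMP, stood at 51.0 and 59.1 *in vivo* and 65.0 and 57.8 *in vitro* and was not called.

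WNT regulators differed strongly within one family. The secreted inhibitors *Sfrp1* (306 and 342 *in vivo* and 16 and 14.9 *in vitro*) and *Sfrp2* (404 and 455 *in vivo* and 38.1 and 34.4 *in vitro*) rose by 4.38 ± 0.10 and 3.56 ± 0.09. *Sfrp5*, in contrast, fell (0.225 and 0.202 *in vivo* and 3.28 and 3.35 *in vitro*, -3.45 ± 0.18). *Rspo1*, an enhancer of WNT signals made by mesothelium, had 2.07 and 1.9 *in vivo* and 35.8 and 31.9 *in vitro* and fell by 4.02 ± 0.13 on the log2 scale. *Axin2*, the standard target of β-catenin, was lower *in vivo* (0.853 and 0.850 *in vivo* and 2.14 and 1.61 *in vitro*, -1.04 ± 0.23, adjusted p = 0.00947), close to both thresholds and not called when any 1 library was left out (adjusted p = 0.02 to 0.065), whereas the dishevelled-binding inhibitor *Nkd2* rose by 3.06 ± 0.12. Of 18 NOTCH genes 6 rose and 3 fell. *Notch4* and *Dll4*, the endothelial receptor and ligand, rose by 3.14 ± 0.16 and 2.53 ± 0.18, while *Notch3*, the mural receptor, had 19.8 and 21.1 *in vivo* and 56.5 and 62.8 *in vitro* and fell by 1.54 ± 0.13 and *Jag1* fell by 1.19 ± 0.12. Of the 17 genes of the IGF axis 5 rose (2 with the scaling undone) and 4 fell. Binding proteins went both ways: *Igfbp2* (1.94 and 2.16 *in vivo* and 29.5 and 29.6 *in vitro*), *Igfbp3* (31.9 and 30.1 *in vivo* and 101 and 94.8 *in vitro*) and *Igfbp5* (38.7 and 41.5 *in vivo* and 96.8 and 109 *in vitro*) fell, *Igfbp7* (1973 and 2059 *in vivo* and 969.9 and 927 *in vitro*) rose, and *Igf1* (31.8 and 29.2 *in vivo* and 17.9 and 20.6 *in vitro*) was not called. The median of this list, 0.03, changed sign when the scaling was undone (-0.31). Among growth factors, 10 of 37 rose and 2 fell, 1 when any single library was left out. *Ptn* (pleiotrophin) had 149 and 139 *in vivo* and 40.2 and 32.7 *in vitro* and rose by 1.99 ± 0.10. *Nrg1*, the ligand of the ERBB receptors of cardiomyocytes, had 2.24 and 2.56 *in vivo* and 0.515 and 0.524 *in vitro* and rose by 2.01 ± 0.16. Among retinoic acid dehydrogenases *Aldh1a3* rose (12.7 and 14.8 *in vivo* and 0.929 and 0.914 *in vitro*, 3.75 ± 0.11) and *Aldh1a1* fell (23 and 23.4 *in vivo* and 77.5 and 70.6 *in vitro*, -1.67 ± 0.11), while *Aldh1a2* was lower in value and missed the fold criterion (-0.60 ± 0.09). Of the genes that retinoic acid induces, *Crabp2* and *Cyp26a1* rose by 3.19 ± 0.18 and 2.48 ± 0.28. Over the whole retinoic acid list 4 of 16 rose (25%) and 2 fell (12.5%), beside 8.42% and 5.44% of all genes. Its median of 0.19 changed sign when the scaling was undone (-0.13).

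Genes that respond to glucocorticoids were examined because the recipient mice received methylprednisolone. Of 29 tested, 8 rose and 4 fell, and the median of 0.30 changed sign when the scaling was undone (-0.02). The receptor co-chaperone *Fkbp5*, a sensitive target, had 7.15 and 8.25 *in vivo* and 1.64 and 2.16 *in vitro* and rose by 1.97 ± 0.17, adjusted p = 0.000143. *Tsc22d3*, which encodes the mediator GILZ, had 17.0 and 16.4 *in vivo* and 8.32 and 8.16 *in vitro* (1.01 ± 0.09). The remaining defining member, the clock gene *Per1*, stood at 28.5 and 28.4 *in vivo* and 21.0 and 23.2 *in vitro* and missed the fold criterion. *Klf15*, another direct target, went the other way (1.44 and 1.05 *in vivo* and 5.42 and 4.82 *in vitro*, -1.97 ± 0.17), as did the metallothionein *Mt1* (104 and 99.7 *in vivo* and 216 and 198 *in vitro*, -1.02 ± 0.09). *Hsd11b1*, the enzyme that regenerates active corticosteroid inside cells, was among the 12 largest falls among protein-coding genes whose higher group averaged 5 FPKM or more, at 0.985 and 1.55 *in vivo* and 24.1 and 20.4 *in vitro* (-4.06 ± 0.20). *Lcn2*, an acute-phase iron carrier, had 1.04 and 2.46 *in vivo* and 0.0495 and 0 *in vitro* and was at least 23.2-fold higher *in vivo*, although its 2 *in vivo* libraries were far apart. Single libraries decided 3 of these calls: *Tsc22d3* was not called without *in vivo* replicate 1 or *in vitro* replicate 2 (log2 fold change 0.99 to 1.0), *Mt1* without *in vivo* replicate 2 or *in vitro* replicate 1 (-0.96 to -1.0) and *Lcn2* without replicate 2 of either group (adjusted p = 0.011 to 0.012).

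Immediate early genes, which switch on within minutes of a stimulus, were higher *in vivo*: 10 of 27 rose and none fell (4). *Jun* had 605 and 667 *in vivo* and 56.5 and 59.3 *in vitro* and rose by 3.45 ± 0.10, adjusted p = 1.11e-06. *Fos* (940.0 and 1052 *in vivo* and 269.6 and 234 *in vitro*), *Fosb* (347 and 449 *in vivo* and 44.1 and 36.7 *in vitro*) and *Egr1* (344 and 457 *in vivo* and 153 and 165 *in vitro*) rose by 1.98 ± 0.12, 3.29 ± 0.15 and 1.32 ± 0.16, and the phosphatase *Dusp1*, also a glucocorticoid target, by 1.98 ± 0.11. Among heat shock genes the change was concentrated in the inducible HSP70 pair. *Hspa1a* had 237 and 149.7 *in vivo* and 3.79 and 2.87 *in vitro* and *Hspa1b* 444 and 256 *in vivo* and 13.3 and 14.1 *in vitro*, log2 fold changes of 5.79 ± 0.22 and 4.61 ± 0.25. In both, *in vivo* replicate 1 was well above replicate 2 and each *in vivo* library was far above the cultures. Reads of these near-identical genes may have been split between them by the counting, which leaves the value of each alone uncertain. *Hspb1* and the co-chaperone *Hsph1* rose by 1.27 ± 0.13 and 1.57 ± 0.10, *Hsp90aa1* was not called at 154 and 137 *in vivo* and 129.9 and 122 *in vitro*, and the mitochondrial chaperone *Hspa9* fell (43.2 and 43.7 *in vivo* and 105 and 96.6 *in vitro*, -1.21 ± 0.07). Hearts were chopped and digested before sorting, a step that the cultures did not share in that form, and its part in the immediate early and heat shock values cannot be told apart from that of the heart.

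**Figure D3:**
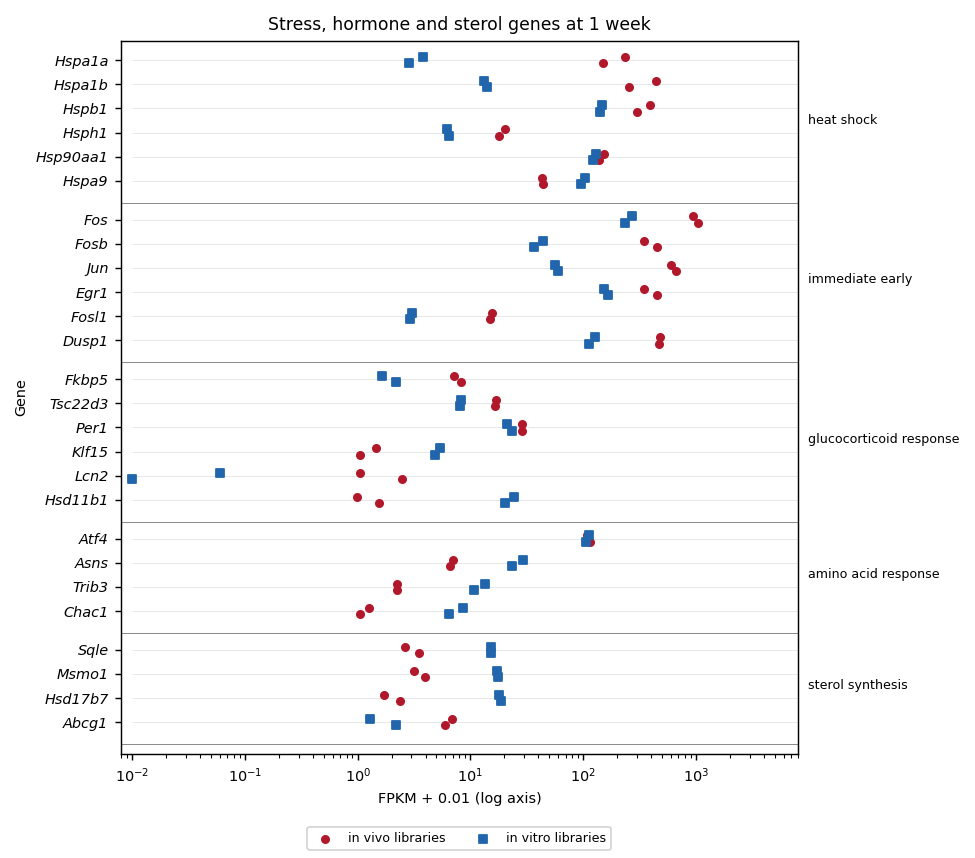
FPKM + 0.01 on a log axis for heat shock, immediate early, glucocorticoid-responsive, amino acid response and sterol genes in the *in vivo* (red circles) and *in vitro* (blue squares) libraries of 1 week. The *Hspa1a* and *Hspa1b* pairs and *Lcn2* are widely separated, and the sterol synthesis genes lie to the left *in vivo* while *Abcg1* lies to the right.

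Inflammatory genes other than the interferon genes that the study names rose selectively. Whether interferon had a part in their values was not tested. In the NF-κB list 11 of 30 rose and 1 fell, but 5 rose without *in vivo* replicate 2 and 7 without *in vitro* replicate 2. *Nfkbia*, the feedback inhibitor of NF-κB and a glucocorticoid target, had 501 and 536 *in vivo* and 116 and 133 *in vitro* and rose by 2.06 ± 0.14. The ligands *Tnf* (31.6 and 77.4 *in vivo* and 78.0 and 89.1 *in vitro*) and *Il1b* (10.5 and 11.6 *in vivo* and 8.35 and 9.27 *in vitro*) were not called, and for *Tnf* the *in vivo* libraries differed widely. The alarmin *Il33* rose from 7.83 and 7.35 to 45.5 and 42.3 (2.52 ± 0.07). In the IL-6 family *Il6* overlapped between the groups (30.3 and 26.2 *in vivo* and 32.8 and 29.5 *in vitro*), whereas the receptor chain *Osmr* rose by 1.96 ± 0.10. *Lrg1*, an acute-phase glycoprotein induced by IL-6, was at 0 fragments in both cultures and at 7.95 and 8.12 *in vivo*, at least 57.2-fold higher. What the JAK inhibitor of the study's medium contributed to these IL-6 family values was not tested. Monocyte-attracting *Ccl2* (130.2 and 144 *in vivo* and 236 and 244 *in vitro*) and *Ccl7* (128 and 129 *in vivo* and 254 and 255 *in vitro*) had lower values *in vivo* without being called. Both were called lower with the scaling undone (log2 fold changes of -1.15 and -1.33) and with quantile normalization (-1.31 and -1.49), which took the fallen CC genes from 1 to 4 of 19 each time. *Ccl8* rose from 0.890 and 1.31 to 36.3 and 25.7 (4.70 ± 0.23) and the macrophage chemokine *Ccl6* fell by 1.72 ± 0.16. Of the CXC group 9 of 17 rose and 1 fell, the fall not being called when any 1 library was left out. *Cxcl12*, the stromal ligand of CXCR4, had 52.5 and 51.4 *in vivo* and 9.26 and 8.36 *in vitro* and rose by 2.55 ± 0.09, and the membrane-bound *Cx3cl1* rose by 3.05 ± 0.10. Among complement genes 8 of 25 rose and 3 fell, but 1 fell without *in vivo* replicate 1, *in vivo* replicate 2 or *in vitro* replicate 2. The central component *C3* (214 and 262 *in vivo* and 52.8 and 55.8 *in vitro*) and *C4b* (32.9 and 30.6 *in vivo* and 0.137 and 0.129 *in vitro*) rose by 2.12 ± 0.11 and 7.09 ± 0.10, and the terminal component *C7* had 5.97 and 7.89 *in vivo* and 0.0485 and 0 *in vitro*, at least 93.7-fold higher. Properdin (*Cfp*), a product of myeloid cells, fell by 1.4 ± 0.15.

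Antigen presentation genes were higher *in vivo* for both MHC classes. In class I, 10 of 23 rose and none fell (0), and the light chain *B2m* stood at 1854 and 1302 *in vivo* and 796 and 775 *in vitro*, just under the fold criterion. *H2-K1* had 402 and 315 *in vivo* and 133 and 133 *in vitro* (1.42 ± 0.11) and *H2-Q6* 22.9 and 13.7 *in vivo* and 0.779 and 0.706 *in vitro* (4.40 ± 0.22). The H2-Q genes are near-identical copies of one another, so values of single members are uncertain. *In vivo* replicate 1 was above replicate 2 for 20 of the 23 class I genes, against 48.3% of all genes. Class II genes, normally made by professional antigen-presenting cells, rose in 5 of 7 and fell in none (0). The invariant chain *Cd74* had 129 and 116 *in vivo* and 7.42 and 8.88 *in vitro*, and *H2-Aa*, *H2-Ab1* and *H2-Eb1* had 34.6 and 35.1 *in vivo* and 1.25 and 1.5 *in vitro*, 41.0 and 38.5 *in vivo* and 2.58 and 2.78 *in vitro* and 59.9 and 57.8 *in vivo* and 2.36 and 2.60 *in vitro* respectively. Their log2 fold changes were 3.89 ± 0.10, 4.57 ± 0.11, 3.84 ± 0.07 and 4.51 ± 0.08, with little spread between replicates. The regulator *Ciita* was too low to test. The study's reprogramming medium holds a JAK inhibitor, and its part in the values of both classes was not tested.

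Markers of other cell types were measured beside these genes, since a sorted eGFP+ fraction can hold them. In bulk libraries fewer cells of a type and less RNA per cell cannot be told apart. Macrophage transcripts were abundant in both groups. *Cd68* had 126 and 109 *in vivo* and 165 and 208 *in vitro*, *Adgre1* (F4/80) 100 and 88.4 *in vivo* and 107 and 134 *in vitro* and *Csf1r* 71.6 and 64.4 *in vivo* and 57.8 and 75.6 *in vitro*, and none of the 3 was called. *Cd68* was called lower with the scaling undone and with quantile normalization. Over the 32 tested markers the summed FPKM was between 3598 and 4174 *in vivo* and between 6519 and 7435 *in vitro*. *Lyz2* alone made up 1453 and 1331 of the *in vivo* sums and 3574 and 4014 of the *in vitro* sums, so the sums largely follow this gene. Of the 32 markers 3 rose (9.4%) and 4 fell (12.5%), beside 8.42% and 5.44% of all genes. With the scaling undone 8 fell, and with quantile normalization 6. The receptor genes *Ccr2* and *Fcgr1* rose from 0.0192 and 0.0792 and 3.04 and 2.56 to 6.23 and 3.33 and 21.7 and 14.1, and *Cx3cr1* rose by 1.4 ± 0.24. Lysozyme (*Lyz2*) at 1453 and 1331 *in vivo* and 3574 and 4014 *in vitro*, *Gpnmb* at 26.2 and 24.2 *in vivo* and 132 and 152 *in vitro*, *Lyz1* and the scavenger receptor *Marco* fell, by 1.45 ± 0.16, 2.49 ± 0.10, 1.88 ± 0.35 and 2.40 ± 0.47. The calls of *Cx3cr1* (adjusted p = 0.013 to 0.032), *Lyz1* (0.011 to 0.032) and *Marco* (0.012 to 0.044) were lost when 1 library was left out, for *Marco* any of the 4, for *Cx3cr1* any but *in vitro* replicate 2 and for *Lyz1* any but *in vivo* replicate 1. *In vivo* replicate 1 was above replicate 2 in 30 of the 32 markers. The part of macrophages in the class II, chemokine and complement values was not tested.

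Endothelial markers rose in 18 of 24 cases and fell in none (1), with a median of 2.55. *Pecam1* had 16 and 14.3 *in vivo* and 1.63 and 2.13 *in vitro*, *Cdh5* (VE-cadherin) 29.6 and 26.2 *in vivo* and 4.13 and 4.49 *in vitro* and *Kdr* (VEGF receptor 2) 5.05 and 4.43 *in vivo* and 0.597 and 0.779 *in vitro*. All 3 defining genes were low but detected in culture and rose by 2.96 ± 0.15, 2.67 ± 0.15 and 2.63 ± 0.16. The transcription factors *Erg* and *Sox18* had 14.4 and 19 *in vivo* and 0.544 and 0.328 *in vitro* and 14.0 and 13.6 *in vivo* and 0.682 and 0.868 *in vitro*. *Cd36*, which macrophages and adipocytes also express, was the member with the lowest value, at 31.4 and 23.5 *in vivo* and 47.1 and 58.1 *in vitro*, and was not called. It was called lower with the scaling undone and with quantile normalization. Mural markers rose in 7 of 14 cases and fell in 3: *Rgs5*, a pericyte gene, had 78.6 and 66.0 *in vivo* and 4.16 and 5.73 *in vitro* (3.86 ± 0.18) and *Cspg4*, which encodes NG2, 5.03 and 6.68 *in vivo* and 1.30 and 1.62 *in vitro* (1.93 ± 0.17), against the falls of *Notch3* and *Myh11*. The summed endothelial FPKM was between 327 and 346 *in vivo* and between 139.8 and 154 *in vitro*. Most neutrophil and lymphocyte markers were too low to test. Of 13 neutrophil genes 9 were too low, and of the 4 tested 1 rose and none fell (1). The summed FPKM of these 4 was 12.16 and 14.06 *in vivo* and 15.84 and 24.97 *in vitro*. Among them *S100a9* was at 0.654 and 1.76 *in vivo* and 0 and 0 *in vitro* and was not called. The 9 tested lymphocyte genes summed to 16.95 and 25.05 *in vivo* and 12.68 and 15.83 *in vitro*. The defining T cell gene *Cd3e* was too low to test, and 2 lymphocyte genes rose: *Igkc*, an antibody light chain, had 2.73 and 7.07 *in vivo* and 0 and 0 *in vitro*, at least 13.2-fold higher, and *Trbc2* had 1.23 and 1.44 *in vivo* and 0 and 0.0968 *in vitro*, which was not called when any 1 library was left out (adjusted p = 0.012 to 0.032). *Mcpt4*, a chymase of mast cells, fell from 64.1 and 61.5 to 6.48 and 5.82 (-3.33 ± 0.07), while the mast cell gene *Cpa3* was too low to test and *Kit* was near 1.45 and 1.19 in culture.

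The mesothelial list changed in the other direction. Of 27 tested members 19 fell and 3 rose, with a median of -2.14. Uroplakin genes, listed here among mesothelial markers, led the falls. *Upk3b* had 2.13 and 1.67 *in vivo* and 69.1 and 67.1 *in vitro* and *Upk1b* 1.72 and 1.69 *in vivo* and 72.1 and 70.3 *in vitro*, so both cultures were far above both *in vivo* libraries (-5.10 ± 0.11, adjusted p = 3.59e-07 and -5.30 ± 0.08, adjusted p = 1.35e-07). *Lrrn4*, another mesothelial membrane protein, had 1.84 and 1.65 *in vivo* and 52.3 and 53.3 *in vitro* (-4.84 ± 0.10) and mesothelin (*Msln*) 5.49 and 4.07 *in vivo* and 32.5 and 29.2 *in vitro* (-2.68 ± 0.15). The epicardial regulator *Wt1* fell from 9.80 and 9.47 to 2.30 and 2.59 (-1.94 ± 0.13). *Tcf21*, an epicardial gene that also marks fibroblasts, had 41.3 and 45.6 *in vivo* and 38.3 and 31.6 *in vitro* and was not called. *Aldh1a2*, the retinoic acid enzyme of epicardium, was lower in both *in vivo* libraries (37.8 and 35.9 *in vivo* and 56.1 and 55.8 *in vitro*) and missed the fold criterion only (-0.60 ± 0.09, adjusted p = 0.00149). The epithelial junction gene *Cgn* (cingulin) and the adhesion protein *Cadm4* were among the 12 largest falls, at 0.170 and 0.0892 *in vivo* and 5.44 and 4.90 *in vitro* and 2.69 and 2.24 *in vivo* and 49.8 and 48.5 *in vitro*. The 3 risen members were *C3*, *Slpi* (a secreted protease inhibitor, 4.42 and 6.70 *in vivo* and 1.71 and 1.87 *in vitro*) and the keratin *Krt14* (named as the last of the 3, 0.680 and 0.786 *in vivo* and 0.222 and 0.190 *in vitro*, 1.44 ± 0.25). *Krt14* was not called when any 1 library was left out (adjusted p = 0.012 to 0.018), and *Slpi* was not called without *in vitro* replicate 1 (0.01).

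**Figure D4:**
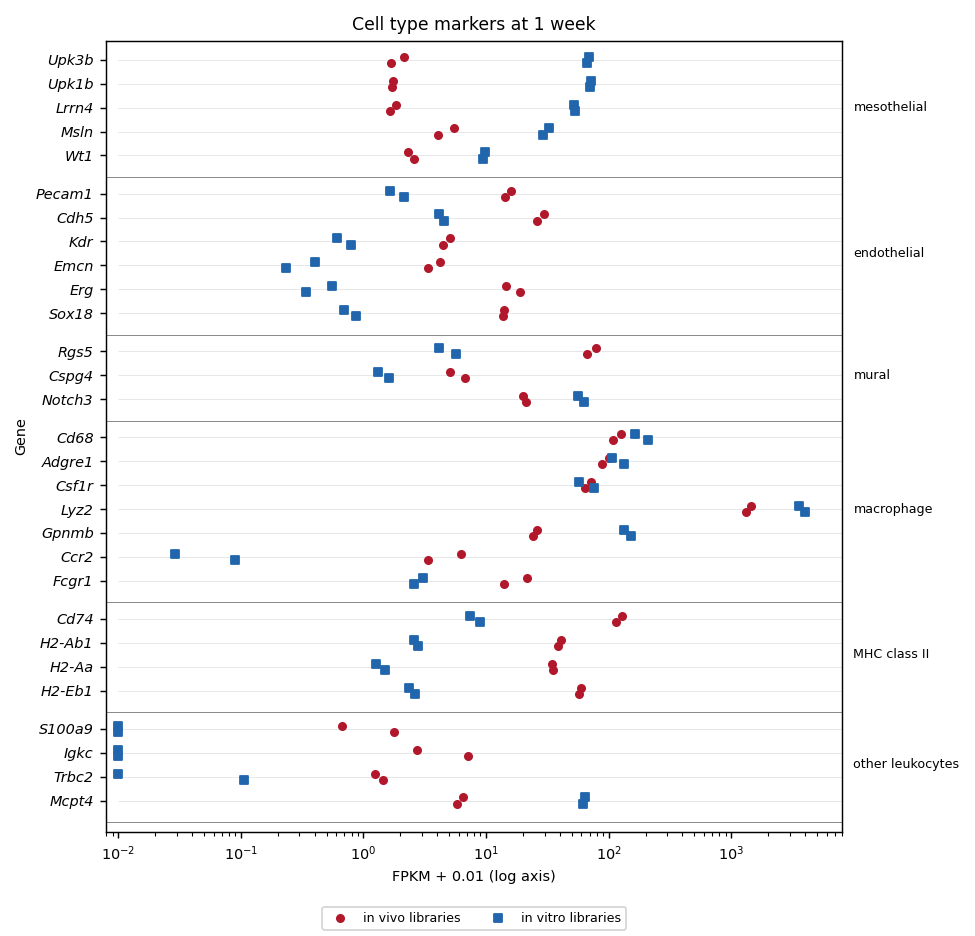
FPKM + 0.01 on a log axis for markers of mesothelial, endothelial, mural, macrophage and other leukocyte types and MHC class II genes in the *in vivo* (red circles) and *in vitro* (blue squares) libraries of 1 week. Mesothelial genes lie to the left *in vivo*, endothelial and class II genes to the right, and *Cd68*, *Adgre1* and *Csf1r* lie close together.

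Of 31 genes of resting fibroblasts 12 rose and 4 fell. *Pi16*, a marker of adventitial progenitor-like fibroblasts, was among the 12 largest rises at 78.9 and 88.5 *in vivo* and 0.684 and 0.638 *in vitro* (6.78 ± 0.08, adjusted p = 1.04e-07). *Cd34* (63.4 and 59.4 *in vivo* and 7.01 and 6.33 *in vitro*) and *Ly6a* (Sca-1, 189 and 119 *in vivo* and 3.34 and 2.0 *in vitro*), which are on the same list, rose by 3.18 ± 0.07 and 5.80 ± 0.28. The part of other cell types in the values of *Cd34* and *Ly6a* was not tested. *Dpp4*, a further marker of such progenitors, fell (0.365 and 0.340 *in vivo* and 3.59 and 2.82 *in vitro*, -2.86 ± 0.19), and so did *S100a4* (FSP1, 1.9 and 0.657 *in vivo* and 9.01 and 5.27 *in vitro*, -2.51 ± 0.51), the latter not without any 1 library other than *in vivo* replicate 1 (adjusted p = 0.019 to 0.049). Transcription factors of mesenchyme rose in 13 of 40 cases and fell in 2. *Meox1*, a homeobox factor of activated cardiac fibroblasts, had 114 and 121 *in vivo* and 0.408 and 0.691 *in vitro* and rose by 7.53 ± 0.19, adjusted p = 7.73e-07, the largest value among factors on these lists. *Meox2* and the Hedgehog effector *Gli1* rose by 2.89 ± 0.16 and 2.50 ± 0.28, *Foxf1* fell by 1.37 ± 0.13, and *Twist1* (26.2 and 27.5 *in vivo* and 20.2 and 14.1 *in vitro*) was not called. HOX and patterning genes were low throughout, with 26 of 42 not tested, none higher (6) and 4 lower, among them *Hoxa5* at 1.87 and 1.84 *in vivo* and 5.78 and 5.67 *in vitro*. The 4 became 2 without *in vitro* replicate 1, and 1 without *in vitro* replicate 2 or in a fit of the libraries of 1 week only. Imprinted genes that control growth rose in 8 of 17 cases (4 with the scaling undone) and fell in 3. The long noncoding RNA *H19* had 66.5 and 74.1 *in vivo* and 18.8 and 18.9 *in vitro* and rose by 1.89 ± 0.11, the deiodinase *Dio3* rose by 3.02 ± 0.34 and *Mest* fell from 18 and 17.7 to 6.21 and 6.19 (-1.51 ± 0.07). *Igf2*, the neighbour of *H19*, was too low to test.

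Cell cycle genes had lower values *in vivo*. Of 49 genes of mitosis and G2/M, 48 had a log2 fold change below zero, against 50.9% of all genes, and 26 passed the test downward and none upward (0), with a median of -1.02. The proliferation marker *Mki67* had 5.46 and 6.68 *in vivo* and 13.7 and 16.4 *in vitro* (-1.29 ± 0.22, adjusted p = 0.00292) and the topoisomerase *Top2a* 6.04 and 5.66 *in vivo* and 13.5 and 14.6 *in vitro* (-1.25 ± 0.15, adjusted p = 0.000636). The kinase *Cdk1*, which drives entry into mitosis, stayed within the fold criterion at 4.17 and 4.28 *in vivo* and 8.66 and 7.15 *in vitro*. *Ccnf*, a cyclin that degrades mitotic regulators, the centromeric histone *Cenpa* and the spindle motor *Kif11* fell by 1.83 ± 0.22, 1.68 ± 0.16 and 1.53 ± 0.12. Most of these genes sit near the fold threshold. The call of *Mki67* was lost when any 1 library was left out (adjusted p = 0.013 to 0.028), and the count of fallen members dropped to 11 without *in vivo* replicate 1, 13 without *in vivo* replicate 2, 10 without *in vitro* replicate 1 and 12 without *in vitro* replicate 2. S phase genes followed with smaller differences, 44 of 50 below zero, 7 called lower, none higher (3) and a median of -0.62. The ribonucleotide reductase subunits *Rrm1* (6.32 and 7.35 *in vivo* and 19.7 and 16.9 *in vitro*) and *Rrm2* (6.16 and 5.60 *in vivo* and 14.2 and 14.5 *in vitro*) fell, while *Pcna* (42.3 and 40.4 *in vivo* and 55.3 and 54.7 *in vitro*) and *Mcm2* (4.02 and 3.66 *in vivo* and 5.75 and 6.32 *in vitro*) were lower in value only. Leaving out any 1 of the 4 libraries left between 2 and 4 S phase genes called. Cell cycle inhibitors did not take the opposite direction. *Cdkn2a*, the p16 and p19 locus that rises in serial culture, had 6.12 and 7.07 *in vivo* and 23.6 and 21.9 *in vitro* and fell by 1.77 ± 0.13, *Cdkn1a* (p21) was lower in value at 77.4 and 70.2 *in vivo* and 110.1 and 106 *in vitro* without being called, and *Ccnd2*, a G1 cyclin, fell from 65.3 and 61.6 to 14.9 and 16.5 (-2.01 ± 0.07). Histone genes of S phase gave no call upward (3) or downward (4) among 22 tested, 40 others being too low in these libraries.

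Promoters of the mitosis genes are shown because these members moved together. The search used RefSeq windows on GRCm38 from 250 bases before to 50 bases after each gene start, found for 10201 of the tested genes, on both strands. TTTGAA, the core of the cell cycle genes homology region, was in 29 of the 41 mitosis genes with a window (70.7%), in 7 of 42 S phase genes (16.7%) and in 11.7% of all windows. CCAAT, which cannot overlap TTTGAA by more than 2 letters, was in 30 of the 41 mitosis genes (73.2%), 26 of the 42 S phase genes (61.9%) and 38.5% of all windows. Among the 22 fallen mitosis genes with a window, 16 held TTTGAA, counted anywhere in the window, before or after the gene start. The motifs were chosen after the fold changes were seen, and a match is a description of letters only. The following stretches of 60 bases end at or before the gene start and read 5′ to 3′ on the gene's strand, with TTTGAA or its complement TTCAAA in capitals. They come from the minus strand at chr11:99024190-99024249 for *Top2a*, chr17:24251410-24251469 for *Ccnf*, chr7:135716438-135716497 for *Mki67* and chr3:27153953-27154012 for *Ect2* (a regulator of cell division, named after its values were seen, at 1.86 and 1.34 *in vivo* and 4.50 and 4.71 *in vitro*), and from the plus strand at chr19:37376322-37376381 for *Kif11*.
Top2a: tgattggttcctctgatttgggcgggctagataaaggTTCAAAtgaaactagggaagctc
Ccnf: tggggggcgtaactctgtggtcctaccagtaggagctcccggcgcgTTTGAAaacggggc
Kif11: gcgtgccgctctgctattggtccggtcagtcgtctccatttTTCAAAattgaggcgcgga
Mki67: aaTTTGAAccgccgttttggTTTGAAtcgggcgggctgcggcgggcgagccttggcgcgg
Ect2: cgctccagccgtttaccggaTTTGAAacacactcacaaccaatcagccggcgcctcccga
In *Top2a*, *Ccnf* and *Kif11* the copy begins 23, 14 and 19 bases before the start, and in *Ect2* 114 bases before it. *Mki67* holds 2 copies in its stretch, of which the nearer begins 98 bases before the start.

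Of 37 tested genes of cholesterol synthesis and sterol response 18 fell and 2 rose, with a median of -1.18. *Sqle* (squalene epoxidase) had 2.63 and 3.49 *in vivo* and 15.2 and 15.3 *in vitro* and fell by 2.29 ± 0.15 (adjusted p = 4.06e-05). *Hsd17b7*, a late enzyme of the pathway, had 1.71 and 2.38 *in vivo* and 17.9 and 18.8 *in vitro* (-3.13 ± 0.15) and *Msmo1* and *Sc5d*, which act near it, fell by 2.26 ± 0.13 and 2.17 ± 0.14. The 2 members that rose are induced by the sterol sensor LXR: the exporter *Abcg1* (6.93 and 5.97 *in vivo* and 1.28 and 2.17 *in vitro*, 1.88 ± 0.27) and the ubiquitin ligase *Mylip* (15.8 and 15.6 *in vivo* and 5.36 and 6.34 *in vitro*, 1.41 ± 0.10). Leaving out either *in vivo* library left 1 of these 2 called, *Abcg1* losing its call (adjusted p = 0.012 to 0.017). The count of fallen members was between 17 and 20 when any 1 library was left out.

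The amino acid response, in which ATF4 raises transporters and synthetic enzymes when amino acids are short, was lower *in vivo* for 11 of 30 genes and higher for 2. *Asns* (asparagine synthetase) had 6.96 and 6.54 *in vivo* and 29.0 and 23.6 *in vitro*, *Trib3* 2.21 and 2.24 *in vivo* and 13.6 and 10.7 *in vitro* and *Chac1* 1.25 and 1.03 *in vivo* and 8.53 and 6.50 *in vitro*. Their log2 fold changes were -1.94 ± 0.12, -2.38 ± 0.14 and -2.61 ± 0.20, with both cultures far above both *in vivo* libraries. *Atf4* RNA itself was level at 107 and 115 *in vivo* and 114 and 107 *in vitro* (0.02 ± 0.06). The stress factor *Nupr1* (97.2 and 104 *in vivo* and 41.6 and 33.8 *in vitro*) and the secreted glycoprotein *Stc2* (10.1 and 11.6 *in vivo* and 4.03 and 3.97 *in vitro*) rose. In promoters, TGATGNAA, the letters of the element bound by ATF4 with a C/EBP partner, was in 8 of the 25 members with a window (32.0%) and in 2.28% of all windows. Of the 9 fallen members with a window 3 held it. *Asns* on chromosome 6 (chr6:7693210-7693269, minus strand) and *Chac1* (chr2:119351029-119351088, plus strand) are shown, with the element or its complement in capitals.
Asns: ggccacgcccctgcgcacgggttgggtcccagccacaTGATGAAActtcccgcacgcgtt
Chac1: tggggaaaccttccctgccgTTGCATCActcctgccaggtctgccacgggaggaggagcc
Chaperones of the endoplasmic reticulum and secretory genes rose in 6 of 44 cases and fell in none (2), and 40 of the 44 had log2 fold changes above zero. With the scaling undone 2 rose, and with quantile normalization 4. *Hspa5* (BiP) had 416 and 498 *in vivo* and 197 and 194 *in vitro* and rose by 1.22 ± 0.09, and the secretory regulator *Creb3l2* and the retrieval receptor *Kdelr3* rose by 1.83 ± 0.07 and 1.24 ± 0.10. *Ddit3* (CHOP) stood at 18.2 and 14.7 *in vivo* and 26.1 and 23.2 *in vitro* and *Xbp1* at 56.9 and 62.2 *in vivo* and 39.0 and 38.2 *in vitro*, neither called.

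Antioxidant genes under NRF2 fell in 7 of 35 cases and rose in 2, but 15 fell and 1 rose with the scaling undone. *Nqo1*, a quinone reductase, had 2.31 and 1.98 *in vivo* and 15 and 11.9 *in vitro* (-2.59 ± 0.16), and the glutathione transferases *Gstm1* (32.6 and 29.0 *in vivo* and 181 and 187 *in vitro*) and *Gsta3* (0.826 and 0.671 *in vivo* and 6.25 and 5.73 *in vitro*) fell, with log2 fold changes of -2.58 ± 0.07 and -2.85 ± 0.13. *Hmox1*, haem oxygenase, was not called at 131 and 103 *in vivo* and 117 and 129 *in vitro*, and the extracellular superoxide dismutase *Sod3* rose by 1.60 ± 0.08. The 13 protein-coding genes of the mitochondrial genome had 12 values below zero, 6 called lower and none higher (0). *mt-Nd1* had 926 and 1040.3 *in vivo* and 2647 and 2510.2 *in vitro* (-1.39 ± 0.10) while *mt-Co1* was nearer at 4392 and 4416 *in vivo* and 5919 and 5792 *in vitro* (-0.41 ± 0.12, not called). Mitochondrially encoded fragments made up 1.29% to 1.35% *in vivo* and 2.80% to 2.87% *in vitro*. Nuclear subunits of oxidative phosphorylation shifted far less: 68 of 76 were below zero, the median was -0.26 and none was called higher (1) or lower (47). Of 37 glycolysis and hypoxia genes 4 were higher (10.8%) and 1 lower (2.7%), beside 8.42% and 5.44% of all genes. The hexokinase *Hk2* (36.1 and 29.1 *in vivo* and 10.3 and 11.9 *in vitro*) and *Ndrg1* (16.7 and 15.9 *in vivo* and 3.54 and 3.52 *in vitro*) rose by 1.54 ± 0.17 and 2.18 ± 0.08, *Ldha* stood at 130.4 and 129 *in vivo* and 176 and 161 *in vitro* without a call, and the aldolase *Aldoc* was among the 12 largest falls (0.576 and 0.494 *in vivo* and 15.7 and 14.2 *in vitro*, -4.57 ± 0.38). For fatty acid uptake and oxidation, 4 of 37 fell (10.8%) and 1 rose (2.7%), beside 5.44% and 8.42% of all genes. With the scaling undone 8 fell. Among the fallen, *Acaa2* stood at 27.5 and 26.5 *in vivo* and 79.9 and 80.4 *in vitro* (-1.57 ± 0.07). *Cpt1a*, the gatekeeper of mitochondrial fatty acid entry, was not called at 29.6 and 28.0 *in vivo* and 40.7 and 42.9 *in vitro*. Cytosolic ribosomal protein genes were above zero in 74 of 79 cases with a median of 0.46 and 1 call, none lower (0). That median was 0.12 with the scaling undone and 0.01 with quantile normalization. Ribosome biogenesis genes gave no call upward (3) or downward (6) among 41.

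**Figure D5:**
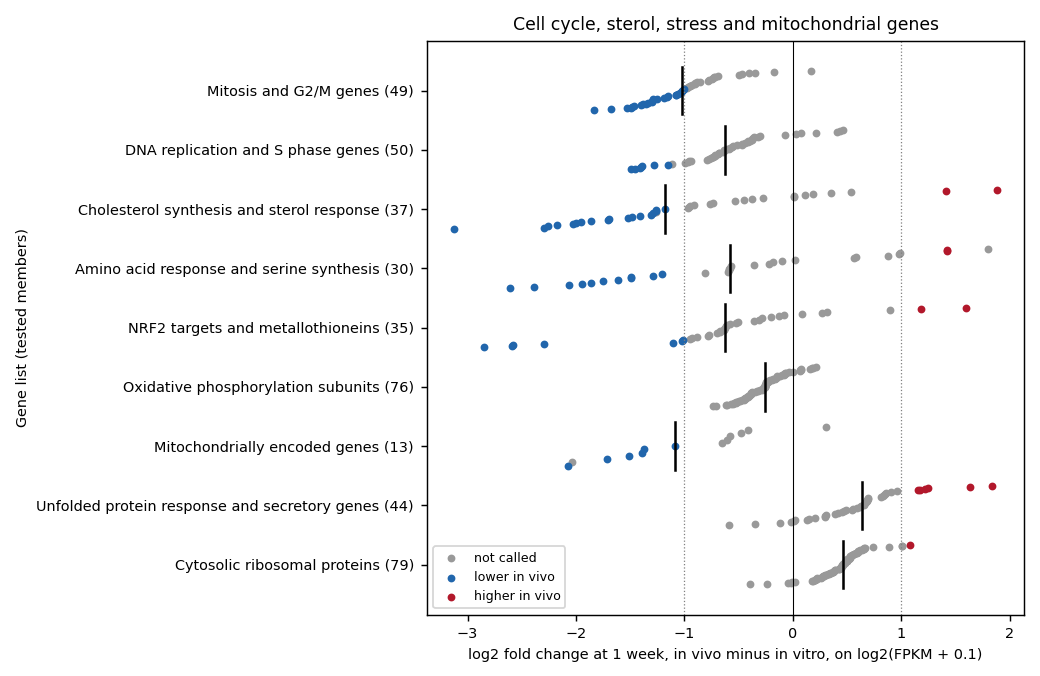
log2 fold change at 1 week (*in vivo* minus *in vitro*) of every tested member of 9 gene lists, coloured by call, with the list median as a black bar and dotted lines at 1 and -1. Of the mitosis members 26 of 49 and of the sterol members 18 of 37 were called lower, while nuclear oxidative phosphorylation subunits lie between -0.74 and 0.21.

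Genes restricted to cardiomyocytes and lying outside the sarcomere fell in 11 of 21 cases and rose in 1. *Nppa*, atrial natriuretic peptide, had 0.691 and 0.887 *in vivo* and 6.31 and 7.74 *in vitro* (-3.0 ± 0.41) and the muscle LIM protein *Csrp3* 0.224 and 0.201 *in vivo* and 3.50 and 3.81 *in vitro* (-3.59 ± 0.21). The muscle phosphoglycerate mutase *Pgam2* (-2.53 ± 0.16) and the fatty acid carrier *Fabp3* (-1.74 ± 0.18) fell as well. Myoglobin (*Mb*) was at or below 1.30 FPKM in every library and not called, and the creatine kinase *Ckm* was too low to test. Ion channel and calcium genes were split at 5 higher (3 with the scaling undone) and 6 lower of 19. The pacemaker channel *Hcn4* had 0.140 and 0.326 *in vivo* and 7.98 and 9.20 *in vitro*, also among the 12 largest falls (-4.76 ± 0.27, adjusted p = 2.09e-05), and *Kcnj5*, an atrial potassium channel, fell by 2.40 ± 0.16. The sarcolipin gene *Sln* had 0.0648 and 0.175 *in vivo* and 1.82 and 1.42 *in vitro*, at least 8.79-fold lower *in vivo*. Single libraries decided *Nppa* (adjusted p = 0.01 to 0.014 without any but *in vitro* replicate 1) and *Sln* (0.014 to 0.02 without any but *in vivo* replicate 2). In the other direction the T-type calcium channel *Cacna1g* (2.97 and 3.53 *in vivo* and 0.993 and 0.845 *in vitro*) rose by 1.72 ± 0.17 and *Gja5*, a connexin of atrial muscle and arterial endothelium, by 2.64 ± 0.24 (log2 scale). The calcium pump *Atp2a2* (SERCA2) was not called at 76.1 and 89.9 *in vivo* and 98.5 and 107 *in vitro*.

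By annotation, 80 of 901 transcription factors were higher and 37 lower, beside 8.42% and 5.44% of all genes. Among the larger families the bZIP factors had 10 of 43 higher and 3 lower and the homeobox factors 11 of 52 higher and 5 lower, whereas the zinc finger family zf-C2H2 had 19 of 398 higher and 10 lower. Long intergenic RNAs were higher in 27 of 261 cases and lower in 11. Genes of mitochondrial tRNAs, at 6 of 18, were lower, with a median of -2.60.

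The same contrast at 2 weeks was used to ask which differences changed with time. An interaction contrast in the fit of all 8 libraries called 189 genes whose difference lay further towards *in vivo* at 1 week (1.3% of those tested) and 97 further towards *in vitro* (0.666%). In the amino acid list 10 of 30 members were of the second kind and none of the first. The fall of *Asns*, -1.94 ± 0.12 at 1 week, shrank to -0.61 at 2 weeks, and *Trib3* went from -2.38 to -0.37. Of the endothelial list 9 of 24 were of the first kind, among them *Pecam1* (2.96 at 1 week and 1.24 at 2 weeks), and of the pericyte list 5 of 14. The sterol genes *Mvk* and *Mylip* also differed between the weeks, as did 1 gene of the mitosis list (*Ube2c*), *Mvk* and *Ube2c* being named here after their values were seen. Without *in vitro* replicate 2, 11 genes of the first kind and 7 of the second were still called, and without any other library of 1 week 1 of each was, so that the contrasts between weeks rest on all 4 libraries.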

How the data were processed

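RNA from eGFP+ cells of 4 groups with 2 libraries each was sequenced by the authors (SMARTER mRNA-Seq kit), and the submitters' processing notes name CASAVA, HISAT2 2.0.5 and the build mm10. The deposited values are FPKM per gene with gene lengths. FPKM multiplied by length was a whole multiple of 1 step for 100% of values in every library, which gave back fragments per gene, with 12801808 to 14546904 on genes in the 4 libraries of 1 week. Limits from these cover counting error only. The authors used DESeq2 on counts, which was not repeated.

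Values were compared as log2(FPKM + 0.1) with limma 3.58.1 (R 4.3.3), moderated variances and an intensity trend. All 8 libraries were fitted as 4 groups with 4 residual degrees of freedom, and the contrast was taken at 1 week with Benjamini-Hochberg adjustment over 14572 genes. The 2 libraries against 2 allow no permutation test under 0.05. The lists, their members and the rules were chosen with earlier results of these data known, so lists got no test.

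Genes to name were, per list, its first 3 members and up to 4 largest rises and falls whose higher group averaged 1 FPKM or more, and the 12 largest rises and falls of protein-coding genes whose higher group averaged 5 FPKM or more and whose groups did not overlap. A fold against a group with at most 3 fragments in each library is a lower bound. Files carried 0 unmapped columns. Newer symbols were matched through a gene name table, and 4 list entries were not matched. Promoters come from RefSeq (GRCm38), the window nearest to the gene start in the deposited table. Python 3.11.15, numpy 2.4.6, pandas 2.3.3 and matplotlib 3.10.9 were used. Replicate numbers were not treated as pairs. Some genes that the rule names are not reported here. Alternatives were another pseudocount, filter, scaling, gene set, variance model, test, threshold or set of libraries.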

Additional observations from a re-analysis of the deposited data

Results flagged for a closer look

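The values here are interaction contrasts, the log2 fold change (*in vivo* minus *in vitro*) at 1 week minus that at 2 weeks, for genes given above in which limma found the 2 weeks to differ (adjusted p under 0.01 and a contrast above 1 in size). Of the 286 such calls over all genes, 2 to 18 were made when any 1 library of 1 week was left out.

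Vessel genes differed more towards *in vivo* at 1 week: *Pecam1* by 1.72, *Cdh5* by 2.23, *Kdr* by 1.83, *Sox18* by 2.38, *Notch4* by 2.22, *Dll4* by 1.87, *Robo4* by 2.56 and *Rgs5* by 2.71. *Cdh5* went from 2.67 (1 week) to 0.43 (2 weeks) and *Rgs5* from 3.86 to 1.14. Antigen presentation and myeloid genes moved the same way, with 1.76 for *Cd74*, 1.60 for *H2-Aa*, 1.18 for *H2-Eb1* and 1.95 for *Fcgr1*, as did *Nfkbia* (1.32), *Ndrg1* (1.23), *Nrg1* (1.55), *Tnfaip6* (1.38), *Sema7a* (1.60) and *Mylip* (1.09). *H19* changed sign, from 1.89 at 1 week to -0.85 at 2 weeks, a contrast of 2.74.

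The contrast of largest size among these genes was that of the macrophage receptor *Marco*, -7.32, since it was lower *in vivo* at 1 week (-2.40) and higher at 2 weeks (4.92). Chemokine and other genes that were further below culture at 2 weeks gave 2.64 for *Ccl2*, 2.46 for *Ccl7*, 3.56 for *Mcpt4*, 2.28 for *Kcnj5*, 2.33 for *Csrp3*, 1.86 for *Fabp3*, 1.35 for *Gpc3*, 1.31 for *Igfbp5*, 1.10 for *Mest* and 1.09 for *Ube2c*.

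Matrix genes went both ways. The rise was smaller at 1 week than at 2 weeks for *Comp* (-1.34), *Cthrc1* (-1.41), *Fbn1* (-1.16), *Itga11* (-1.28), *Lox* (-1.02) and *Timp1* (-1.4), and also for *C4b* (-1.56), *Pi16* (-1.61), *Ntn1* (-1.05) and *Stc2* (-1.67). It was larger at 1 week for *Aspn* (1.30), *Mfap4* (1.08) and *Mmp14* (1.06). Falls were smaller or absent in value at 2 weeks for *Adamts5* (-1.93), *Mmp3* (-1.67), *Bmp4* (-1.19), *Jag1* (-1.21), *Fbln7* (-1.18), *Mvk* (-1.25), *Asns* (-1.33), *Slit3* (-1.07) and *Trib3* (-2.01). At 2 weeks the log2 fold changes of these 9 lay between -0.68 (*Fbln7*) and 0.06 (*Mmp3*).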

How the results depend on the processing

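Of 322 recomputed counts 283 stayed within 1.5 times the reported value, and no called gene given in the text reversed its direction under any of the 17 alternatives. Genes higher *in vivo* at 1 week numbered 2338 with no fold threshold and 959 to 1043 without 1 library. Genes lower *in vivo* numbered 487 with a pseudocount of 1, 1572 with the scaling undone, 1988 with no fold threshold and 499 to 590 without 1 library. With quantile normalization 54.6% of the called genes were higher. Genes whose difference changed between the weeks numbered 286 in the reported fit, 453 among protein-coding genes, 65 without an intensity trend, 480 by limma voom, 102 with a replicate block, 669 at an adjusted p under 0.05 and 2 to 18 without 1 library. With that replicate block 1164 genes were higher and 721 lower at 1 week. Whether same-numbered libraries share a batch of infected cells is not stated. Their deviations correlated at -0.04 at 1 week, which does not settle whether they are pairs.

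For the gene lists, fallen mitosis genes numbered 12 with a pseudocount of 1 and 10 to 13 without 1 library, against 26. Fallen S phase genes numbered 4 with a pseudocount of 1, 18 with the scaling undone, 19 with no fold threshold and 2 to 4 without 1 library, against 7. Fallen macrophage markers numbered 8 with the scaling undone, 2 without an intensity trend and 2 to 4 without 1 library, against 4. Fallen TGF-β genes numbered 0 with a pseudocount of 1 and 3 with the scaling undone or with no fold threshold, against 1. Fallen glucocorticoid-responsive genes numbered 9 with no fold threshold, against 4. Without 1 library the fallen tendon and cartilage genes numbered 0 to 1, the risen mesothelial genes 1 to 2 and the risen sterol genes 1 to 2. Counts of 1 or 2 also moved without 1 library for fallen retinoic acid, mast cell, Schwann and lysosome genes and for risen neutrophil, lymphocyte, cardiomyocyte, adipocyte, amino acid response, lysosome and ribosomal protein genes. With the scaling undone, immediate early, oxidative phosphorylation and histone genes gained 2 falls each, fallen WNT genes went from 3 to 6, fallen glycolysis genes from 1 to 3 and risen bone genes from 3 to 1. The cause of these changes was not tested, except that leaving out a library lowers the number of samples.

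With the scaling undone the median of 9 lists changed sign, those of bone, cadherin, IGF, retinoic acid, glucocorticoid, guidance, complement, adipocyte and heat shock genes. Of 213 genes given in the text that were called, 177 kept their call and sign under every alternative. The rises of *Dcn*, *Egr1*, *Hspa5*, *Hspb1*, *Igfbp7* and *Mmp14* were not called with the scaling undone, nor with quantile normalization. The scaling undone also removed the calls of *Kdelr3*, *Runx2* and *Tsc22d3*, and quantile normalization those of *H2-K1* and *Timp1*. With 2 libraries a group, a small difference cannot be told from none, and genes near 0.5 FPKM rest on few fragments.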

Other observations

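Guidance genes, which steer axons and vessels, were split, with 9 of 32 higher (5 with the scaling undone) and 4 lower *in vivo*. The semaphorin *Sema7a* had 19 and 21.3 *in vivo* and 1.38 and 1.62 *in vitro* and rose by 3.66 ± 0.12, and *Ntn1* (netrin-1) rose from 3.39 and 3.31 to 13.5 and 13.2 (1.96 ± 0.07). *Slit2* (4.41 and 4.65 *in vivo* and 9.73 and 9.42 *in vitro*) and *Slit3* (33.6 and 35.4 *in vivo* and 73.5 and 80.0 *in vitro*), ligands of ROBO receptors, fell by 1.06 ± 0.12 and 1.15 ± 0.07, while the endothelial receptor *Robo4* rose by 3.21 ± 0.22. Schwann and neural genes rose in 4 of 7 cases and fell in 2: *S100b* had 2.42 and 3.47 *in vivo* and 0.481 and 0.767 *in vitro* and *Cdh19* 3.67 and 3.32 *in vivo* and 0.926 and 0.735 *in vitro*, whereas the myelin gene *Mbp* fell from 5.81 and 6.10 to 1.98 and 1.71 (-1.64 ± 0.28). Neither *S100b* (adjusted p = 0.018 to 0.05 by limma) nor *Mbp* (0.019 to 0.028) was called when any 1 library was left out. The Schwann cell regulator *Sox10* was too low to test.

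Of 41 lysosome and lipid handling genes 2 were higher and 2 lower, 4.88% each beside 8.42% and 5.44% of all genes. Of the 41, 29 were below zero, with a median of -0.22, and 5 were lower with the scaling undone and 6 with quantile normalization. The cathepsin *Ctsk*, a collagen-degrading enzyme, rose from 37.2 and 30.0 to 141 and 149 (2.11 ± 0.10), and *Atp6v0d2*, a proton pump subunit of osteoclasts and macrophages, fell from 7.77 and 10.5 to 0.912 and 2.15 (-2.60 ± 0.39), the latter not called without *in vitro* replicate 2 (adjusted p = 0.017 by limma). Of junction genes 4 of 27 rose and 3 fell. *Cdh2* (N-cadherin) stood at 25.1 and 25.5 *in vivo* and 25.9 and 25.4 *in vitro* and *Cdh11* at 21.4 and 23.8 *in vivo* and 16.9 and 16.5 *in vitro*, neither called, whereas the neural adhesion molecule *Ncam1* rose from 0.532 and 0.610 to 10.6 and 9.53 (3.92 ± 0.22) and the desmosomal *Dsp* fell by 1.62 ± 0.19. Of 9 adipocyte genes tested 2 rose and 1 fell, and the defining *Adipoq* was too low to test.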
